A study of Mus musculus with 81 samples.

Results

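The 10 genes described here, Casp1, Casp4, Casp8, Casp12, Gsdmd, Nlrp3, Ripk1, Ripk3, Mlkl and Tnfsf10, were taken by symbol as genes of inflammatory cell death. They are 10 of the 55450 genes listed in the count files. RNA was sequenced from mouse macrophages and their bone marrow progenitors, without or with cre-driven deletion of the genes of the replacement histone H3.3. The mice were derived from a C57BL/6 background, males and females of 8 to 10 weeks. WT mice carried floxed H3f3a and H3f3b (H3f3a fl/fl H3f3b fl/fl) and no cre. cKO mice carried the same alleles and LysM cre/cre, in which cre is expressed from the Lyz2 locus in myeloid cells and takes the place of both Lyz2 copies, so that cKO cells differ from WT cells in cre and Lyz2 as well. The cells were bone marrow cultures with L929 conditioned medium on days 3, 5 and 7, bone marrow-derived macrophages (BMDMs) on day 8 without or with interferon-γ (IFNγ) for 12 h, and macrophages isolated from the peritoneum with a kit. The titles call the cells of days 3 and 5 BMDM progenitors and those of day 7 BMDMs. BMDMs of day 6 had been given no antibody, an IgG1κ control antibody or the antibody MAR1-5A3 against the type I interferon receptor IFNAR1, at 10 µg/mL every 12 h. BMDMs of 3 double KOs were cKO cells that also lacked Sting (cKO:StingKO), Mavs (cKO:MavsKO) or Irf7 (cKO:Irf7KO), and came with 3 sets each of WT and cKO BMDMs. The study lists the parent lines of the cre, Sting, Mavs and Irf7 alleles as C57BL/6 with another strain. It lists the cKO and double KO lines as C57BL/6, with Mavs KO mice backcrossed for at least 6 generations. Groups held 3 libraries, except the day 8 cKO groups with 2 each. A further 2 cKO libraries of day 8 carry IFNγ in only 1 of their 2 names, the title or the library name, and they entered no comparison.

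Pyroptosis is a lytic death in which inflammasome sensors such as NLRP3 activate caspase-1, or cytosolic lipopolysaccharide activates caspase-11 (Casp4 in the mouse), and the caspase frees the pore-forming end of gasdermin D. Necroptosis is a lytic death in which RIPK3, which RIPK1 can engage, phosphorylates the pseudokinase MLKL. Caspase-8 cleaves the RIP kinases and holds this death back. In macrophages both pathways answer microbes and death receptor ligands, and several of their genes are known to be induced by interferons. Caspase-12 lies beside caspase-1 and caspase-11 in 1 cluster and is best known for an association with endoplasmic reticulum stress, and Tnfsf10 encodes the death receptor ligand TRAIL.

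The 79 placed libraries held 3614967 to 45564225 counts on genes. H3f3a was lower in every cKO library than in every WT library of its experiment (1.21 to 15.3 CPM against 33.6 to 93.8 CPM), while H3f3b was at 149 to 222 CPM in the cKO time course against 181 to 280 CPM in WT, and at 16.7 to 67.8 CPM in cKO of the antibody arms against 295 to 468 CPM. In the time course cKO cells thus kept much of their H3f3b RNA, with means of 202, 172 and 168 CPM on days 3, 5 and 7 against 234, 218 and 222 CPM in WT. The study calls the deletion of H3f3b variable, complete in some cKO samples and partial in others. CPM values are counts scaled to a common library total with TMM factors. Lyz2 was at 1.69 to 81.9 CPM in the cKO libraries. Sting1 was at 5.01 to 6.1 CPM in cKO:StingKO against 68.2 to 91.7 CPM in the cKO sets, and Irf7 was at 98.3 to 112 CPM in cKO:Irf7KO against 249 to 470 CPM. Mavs, at 37.2 to 37.9 CPM in the libraries labelled cKO:MavsKO against 36.0 to 51.6 CPM in the cKO sets, did not mark that knockout. The study reports the loss of Mavs exons in these BMDMs by genomic PCR, qRT-PCR and RNA-seq tracks. The counts used here cover the whole gene and were not split by exon. All 6 macrophage markers were above 1 CPM in every library, and Gata6, Icam2 and Cd5l, which mark peritoneal macrophages, summed to 3136 to 4511 CPM in peritoneal macrophages and to at most 214 CPM elsewhere. Replicate 1 of cKO day 8 with IFNγ stands apart, with the fewest counts and 57.1% of its reads unmapped, and results that rest on it are given with and without it. The labels number replicates as biological without saying which mice they came from, so p-values measure the spread between these libraries. In bulk RNA, fewer cells of a type and less RNA per cell cannot be told apart. Where groups of libraries are said not to overlap for a gene, the share of all genes without overlap was not counted.

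By the annotation (GRCm38, GENCODE vM21), Casp1 (chr9:5298517-5307265), Casp4 (chr9:5308828-5336783) and Casp12 (chr9:5345430-5373032) are neighbouring paralogs on the plus strand. Tnfsf10 spans chr3:27317028-27342427 and Ripk1 spans chr13:34002363-34037147, both on the plus strand. Ripk1 overlaps Serpinb6a of the other strand at its 5′ end, Mlkl a pseudogene of the other strand and Casp8 an unprocessed transcript model of its own strand, and the counts used disregard strand. RefSeq promoter windows (GRCm38.p6, 250 bases before to 50 after a transcript start) were at hand for 9 of the 10 genes, all but Gsdmd. They were searched on both strands for 2 interferon motifs, TTCNNNGAA, the gamma activated sequence of IFNγ-responsive genes, and GAAA repeated after 2 bases, the core of the interferon response element. The windows of 4 genes are shown, from 250 bases before to 20 after the start, because in WT Tnfsf10, Casp4 and Casp12 had the highest log2 fold changes with IFNγ, Casp12 within its SE of Mlkl, and Ripk1 the lowest, within its SE of Nlrp3. Capitals mark motif matches.
Tnfsf10, chr3:27316827-27317096, plus strand: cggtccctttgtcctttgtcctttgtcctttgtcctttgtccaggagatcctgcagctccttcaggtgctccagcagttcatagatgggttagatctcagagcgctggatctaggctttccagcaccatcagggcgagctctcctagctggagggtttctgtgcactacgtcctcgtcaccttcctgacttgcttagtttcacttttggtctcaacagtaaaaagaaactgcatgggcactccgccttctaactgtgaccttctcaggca
Casp4, chr9:5308599-5308868, plus strand: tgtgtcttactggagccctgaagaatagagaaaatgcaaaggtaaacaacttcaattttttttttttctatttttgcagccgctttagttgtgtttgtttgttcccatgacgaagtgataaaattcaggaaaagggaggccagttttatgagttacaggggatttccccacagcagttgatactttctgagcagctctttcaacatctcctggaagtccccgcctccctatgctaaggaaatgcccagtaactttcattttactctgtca
Casp12, chr9:5345226-5345495, plus strand: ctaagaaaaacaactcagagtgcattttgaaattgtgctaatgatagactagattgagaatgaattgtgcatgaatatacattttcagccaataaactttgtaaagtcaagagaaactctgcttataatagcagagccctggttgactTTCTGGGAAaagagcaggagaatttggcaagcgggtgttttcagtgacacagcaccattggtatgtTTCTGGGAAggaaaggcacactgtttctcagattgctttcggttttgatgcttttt
Ripk1, chr13:34002624-34002893, plus strand: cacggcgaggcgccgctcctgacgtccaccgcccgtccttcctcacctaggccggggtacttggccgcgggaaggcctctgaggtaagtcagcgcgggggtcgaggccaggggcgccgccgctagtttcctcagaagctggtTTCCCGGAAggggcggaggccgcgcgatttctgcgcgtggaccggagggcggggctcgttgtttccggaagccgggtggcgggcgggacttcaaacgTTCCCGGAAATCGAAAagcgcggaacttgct
Casp12 held TTCTGGGAA at 102 and 36 bases before its start. Ripk1 held TTCCCGGAA at 108 and 11 bases before its start, the match nearer the start overlapping a response element core, GAAATCGAAA, and the window of its other RefSeq start held neither motif. No match was found in the windows of the other 7 genes, Tnfsf10 and Casp4 included, which says only that these letters are not in the 300 bases searched. Of 32851 mouse windows of this length, 8.3% hold the first motif and 3.44% the second.

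Among WT cells of day 7, levels per kilobase of exon placed Casp1 (39.3 ± 12.5 CPM per kb, SD, n = 3), Gsdmd (32.6 ± 6.42), Casp8 (27.4 ± 2.99) and Nlrp3 (25 ± 7.47) at the top, each within 1 SD of its neighbour. Ripk1 (13.7 ± 0.89), Mlkl (12.6 ± 7.83) and Ripk3 (12.5 ± 4.27) followed and were not separated from each other. Casp4 was lower, at 5.15 ± 1.7 CPM per kb, and Tnfsf10 lower again, at 0.984 ± 0.712. Casp12 was close to absent, at 0.0302 ± 0.0147 CPM per kb from 1 to 3 counts a library. WT peritoneal macrophages, prepared with another library kit and so set beside the BMDMs without a test, had the same gene at the top, Casp1 at 88.8 ± 17.4 CPM per kb. Nlrp3 was lower in their order, at 6.24 ± 1.41 CPM per kb, below Ripk1 (21.9 ± 3.25), Ripk3 (16.7 ± 3.81), Mlkl (11.9 ± 1.93) and, within the spread, Casp4 (7.61 ± 1.78). Casp12 was at 0.455 ± 0.183 CPM per kb there, from 9 to 40 counts a library. Exon length was the union of all annotated exons of a gene, from 1497 bases for Casp1 to 8344 for Ripk1. The order of genes depends on this length, and the SD does not measure that.

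On day 3 of culture, Casp4, Ripk3 and Tnfsf10 were higher in cKO than in WT cells, and none of the 9 members tested was lower. Casp4 (caspase-11, the lipopolysaccharide sensor of noncanonical pyroptosis) was at 9.54, 3.81 and 6.18 CPM in the WT libraries and at 36.4, 24.1 and 33.9 CPM in the cKO libraries. Every cKO library stood above every WT library, a log2 fold change of 2.28 (SE 0.429, edgeR's quasi-likelihood test with Benjamini-Hochberg adjustment, adjusted p = 0.00384). Tnfsf10 (TRAIL) had 5, 11 and 9 counts in WT, or 0.341, 0.645 and 0.505 CPM, and 5.22, 5.61 and 8.73 CPM in cKO. The groups were far apart (log2 fold change 3.68, SE 0.758, adjusted p = 0.00686), but the size of the fold rests on few WT counts. Ripk3, the kinase that phosphorylates MLKL, was at 51.0, 52.0 and 49.9 CPM in WT and at 96.0, 88.8 and 78.6 CPM in cKO. The narrow WT group lay wholly below cKO (log2 fold change 0.78, SE 0.192, adjusted p = 0.0189). The calls of Casp4 and Tnfsf10 were kept whichever library was left out. That of Ripk3 was lost, with adjusted p between 0.0595 and 0.0855, without any 1 of the 3 WT libraries or of cKO replicates 1 and 2, although its log2 fold change stayed between 0.69 and 0.86. Over all 15955 genes tested, 7.73% were called on day 3 and 5.19% were called higher, against 3 of the 9 members.

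Casp1, Gsdmd and Mlkl also had every cKO library of day 3 above every WT library without passing the test. The share of all genes separated in this way was not counted. Casp1 was at 65.3, 48.3 and 49.6 CPM in WT and 91.8, 80.7 and 98.0 CPM in cKO (log2 fold change 0.73, adjusted p = 0.0596). Gsdmd, the executor of pyroptosis, was at 55.7, 51.6 and 59.6 CPM and 86.3, 82.4 and 74.7 CPM (0.54, adjusted p = 0.0703), and Mlkl, the executor of necroptosis, at 33.6, 28.1 and 31.8 CPM and 56.1, 51.7 and 59.3 CPM (0.84, adjusted p = 0.21). Same-numbered libraries of day 3 deviated together (r of 0.126 to 0.419). With the number as a block Casp1, Gsdmd and Mlkl passed, which raised the members called from 3 to 6. That block spanned the whole time course, day 5 included, where r was -0.0232 to 0.167, and the pairing was read from these same counts. The blocked adjusted p was 0.0102 for Casp1, 0.0347 for Gsdmd and 0.0428 for Mlkl, and over all alternatives it ran from 0.00926 to 0.215, 0.00925 to 0.234 and 0.00148 to 0.425. Casp8 (0.25, adjusted p = 0.298), Nlrp3 (0.10, adjusted p = 0.912) and Ripk1 (-0.04, adjusted p = 0.907) were not called under any alternative. Nlrp3, the sensor whose abundance primes the inflammasome, had its spread in both genotypes from replicate 1, at 209 CPM in WT and 210 CPM in cKO against 75.3 to 96.4 CPM in the other 4 libraries. Casp12 had too few counts to be tested, 0, 2 and 0 in WT and 4 to 7 in cKO.

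**Figure D1:**
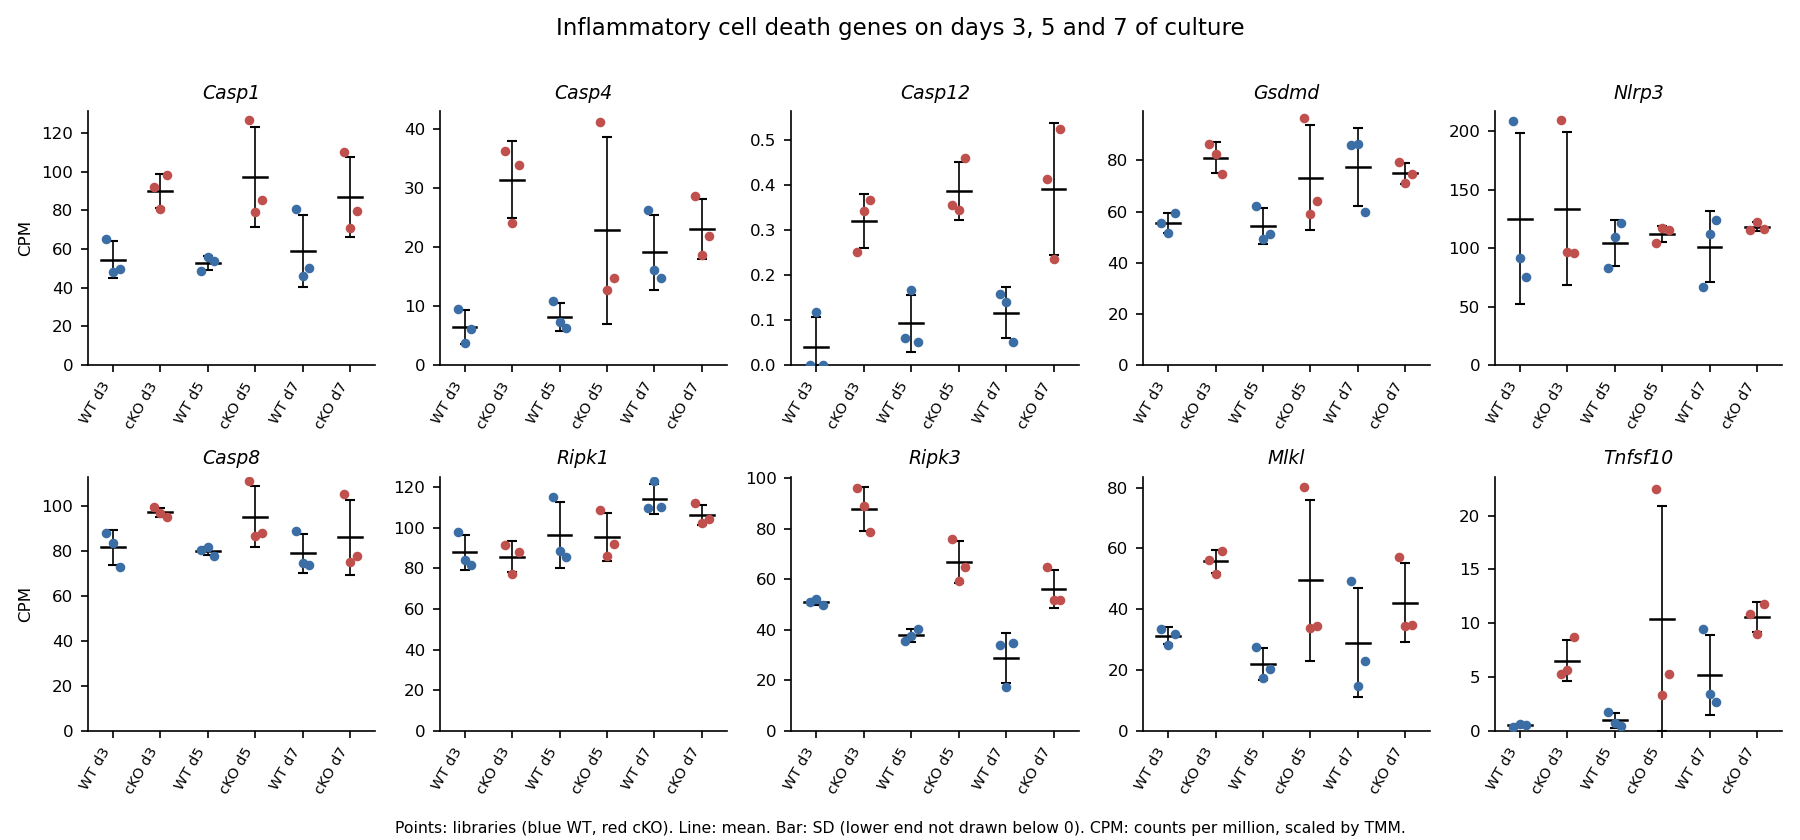
CPM of the 10 genes (y axis, a scale for each gene) in the WT (blue) and cKO (red) libraries of days 3, 5 and 7 (x axis), with the mean as a line and the SD as a bar. Casp4 and Tnfsf10 are apart on day 3 (at most 9.54 and 0.645 CPM in WT, at least 24.1 and 5.22 CPM in cKO) and meet on day 7, while the Ripk3 groups do not overlap on any day.

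Other genes of the pathways were read from lists chosen by function, in which the members do not appear. Of 12 pyroptosis substrates and executors tested on day 3, 6 rose and none fell. They were led by the guanylate-binding proteins Gbp5 (log2 fold change 4.89), Gbp2 (4.25) and Gbp3 (4.11), which act on bacterial membranes upstream of caspase-11, and the interferon-inducible GTPase Irgm1 (3.23). Of 15 inflammasome sensors and adaptors, 3 rose, among them Nlrc5 (2.25), better known as an activator of MHC class I genes, and the DNA sensor Aim2 (0.77). Of 27 death receptor and necroptosis genes, 4 rose: Zbp1 (6), the nucleic acid sensor that can recruit RIPK3, the RNA receptor Tlr3 (1.43), and the ubiquitin ligase subunits Rnf31 (0.95) and Rbck1 (0.37). Zbp1 went from a mean of 1.18 CPM in WT to 75.4 CPM in cKO. None of 6 genes of the apoptotic caspases passed edgeR's test, and none had an unadjusted p under 0.05. All 20 canonical interferon genes rose (median 5.92), led by Ifi44 (8.82). The median over all genes was 0.0362, and 7.73% of all genes were called on this day, 5.19% higher. Markers of other cells moved with these groups. The 5 myeloid progenitor markers summed to 410 to 711 CPM in WT and 773 to 1105 CPM in cKO of day 3, and the 8 neutrophil markers to 1571 to 2919 CPM and 2406 to 3675 CPM, with at most 1 of them under 1 CPM in any library. The neutrophil sums overlapped. Without overlap, cKO was also higher for the B cell markers (61.7 to 100 CPM against 31.6 to 41.2 CPM), the 3 peritoneal macrophage markers (65.7 to 102 CPM against 13.5 to 39.2 CPM) and the mast cell or basophil markers (6.09 to 7.73 CPM against 0.818 to 2.13 CPM). Up to 1 of the 3 peritoneal macrophage markers was under 1 CPM in a library. Of the 4 mast cell or basophil markers, up to 2 were under 1 CPM in a cKO library and up to 4 in a WT library. The part of all these markers in the values of the members was not tested.

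On day 5, 3 of 9 members were higher in cKO, against 2.83% of all genes called and 2.2% called higher. Ripk3 was at 35.3, 37.6 and 40.2 CPM in WT and 75.7, 59.4 and 64.9 CPM in cKO, with no overlap (log2 fold change 0.82, SE 0.193, adjusted p = 0.0305). Tnfsf10 was at 1.73, 0.663 and 0.464 CPM in WT and 22.5, 3.29 and 5.23 CPM in cKO (3.45, SE 0.698, adjusted p = 0.0146). Casp1, the inflammasome protease, was at 48.7, 55.9 and 53.6 CPM in WT and 127, 79.2 and 85.6 CPM in cKO (0.88, SE 0.225, adjusted p = 0.0461). Replicate 1 was the highest of the cKO libraries of day 5 for all 3 genes, and also for Casp4 (41.2 CPM against 12.7 and 14.8), Mlkl (80.2 against 33.9 and 34.3) and Irf7 (1126 against 133 and 166). Without it, the log2 fold changes were 0.65 for Casp1, 0.73 for Ripk3 and 2.18 for Tnfsf10, and none was called (adjusted p = 0.281, 0.178 and 0.0912). The calls of Casp1 and Ripk3 were also lost without cKO replicate 3 or any 1 WT library, and that of Tnfsf10 without WT replicate 2 or 3. Casp4 (1.49, adjusted p = 0.0731) and Mlkl (1.18, adjusted p = 0.136) had no overlap between the groups and were not called, and without cKO replicate 2 Casp4 was called (1.79, adjusted p = 0.0265, range over the alternatives 0.00188 to 0.564). Progenitor markers summed to 48.9 to 80.5 CPM in WT and 170 to 419 CPM in cKO, stromal markers to 13.2 to 42.9 CPM and 68.2 to 96.5 CPM, and peritoneal macrophage markers to 13.8 to 17.4 CPM and 44.3 to 113 CPM. Up to 3 of the 5 stromal and 1 of the 3 peritoneal macrophage markers were under 1 CPM in a library. The part of all these markers was not tested.

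On day 7 only Ripk3 among the 9 members was called, against 1.4% of all genes, and 0.871% higher. It was at 34.1, 17.4 and 34.6 CPM in WT and 64.7, 51.5 and 51.9 CPM in cKO (log2 fold change 0.96, SE 0.194, adjusted p = 0.0233). The cKO libraries were all above WT, and the call was lost without cKO replicate 1 (0.84, adjusted p = 0.112) and when only the day 7 groups were fitted (adjusted p = 0.386, the top of its range from 0.00123). Casp4 no longer stood apart, at 26.3, 16.2 and 14.8 CPM in WT and 28.6, 18.7 and 22.0 CPM in cKO (0.27, adjusted p = 0.781). Tnfsf10 was at 9.49, 3.36 and 2.69 CPM in WT and 10.9, 9.02 and 11.8 CPM in cKO (1.02, adjusted p = 0.422). WT replicate 1 was the highest WT library for Casp1, Casp4, Mlkl, Tnfsf10 and Irf7 (341 CPM against 80.6 and 45.2), and without it Casp1 was called (0.86, adjusted p = 0.0385, range over the alternatives to 0.66). None of the 20 interferon genes was called on this day by edgeR, with 3 at an unadjusted p under 0.05, and their median log2 fold change was 0.57. Progenitor markers remained higher in cKO (30.8 to 75.6 CPM against 3.78 to 9.72 CPM), as were stromal markers (87.9 to 126 CPM against 4.59 to 41.3 CPM), with no test of their part in the Ripk3 value. Up to 4 of the 5 progenitor markers and 3 of the 5 stromal markers were under 1 CPM in a WT library. B cell markers were lower in cKO (14.3 to 56.4 CPM against 57.8 to 193 CPM), with up to 3 of 5 under 1 CPM in a library. Their part was not tested.

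Within WT cells, Casp4, Tnfsf10 and Ripk1 rose and Ripk3 fell from day 3 to day 7, 4 of 9 members against 23.9% of all genes (12.3% higher and 11.7% lower). Tnfsf10 rose by 3.35 on the log2 scale (SE 0.759, adjusted p = 0.00611) and Casp4 by 1.56 (SE 0.424, adjusted p = 0.0161), and Ripk3 fell by 0.82 (SE 0.194, adjusted p = 0.00764). Ripk1 rose by 0.38 (SE 0.128, adjusted p = 0.0425), from 97.9, 84.1 and 81.9 CPM to 110, 123 and 110 CPM. The call of Casp4 was lost without day 3 replicate 2 or 3 (adjusted p = 0.0667 and 0.0558), and that of Ripk1 without any 1 of 4 of the 6 libraries (day 3 replicates 2 and 3 and day 7 replicates 2 and 3, adjusted p up to 0.137). Without day 7 replicate 3, Gsdmd was called as well (0.61 in place of 0.48, adjusted p = 0.0213 in place of 0.0576, and up to 0.18 over the alternatives). All 20 interferon genes rose over the same days in WT. Within cKO cells, Ripk3 fell by 0.65 (adjusted p = 0.0337), 1 of 9 members against 14% of all genes (7.7% lower), from 96.0, 88.8 and 78.6 CPM to 64.7, 51.5 and 51.9 CPM. That call was lost without day 3 replicate 1 or 2 or day 7 replicate 2 or 3 (adjusted p up to 0.143). Casp4 (-0.45) and Tnfsf10 (0.69) were not called between the days in cKO. The cKO effect of day 7 less that of day 3 was -2.01 for Casp4 (SE 0.582, adjusted p = 0.139) and -2.66 for Tnfsf10 (SE 0.967, adjusted p = 0.218). No member passed this test in edgeR, with 3 at an unadjusted p under 0.05 and 1 called by DESeq2, where 0.0439% of all genes passed. From day 3 to day 7 neutrophil markers went from 1571 to 2919 CPM to 105 to 175 CPM in WT and from 2406 to 3675 CPM to 119 to 304 CPM in cKO. Progenitor markers went from 410 to 711 CPM to 3.78 to 9.72 CPM in WT and from 773 to 1105 CPM to 30.8 to 75.6 CPM in cKO. Their part in the changes between days was not tested.

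IFNγ, the macrophage-activating cytokine, raised all 10 members in WT BMDMs of day 8. Tnfsf10 went from 7.68, 4.67 and 3.24 CPM to 295, 416 and 312 CPM, a log2 fold change of 6.05 (SE 0.512, adjusted p = 1.19e-05). Casp4 went from 13.3, 15.9 and 12.6 CPM to 141, 174 and 145 CPM (3.46, SE 0.159, adjusted p = 3.2e-07). Mlkl went from 21.9, 11.1 and 16.1 CPM to 161, 160 and 139 CPM (3.23, SE 0.234, adjusted p = 4.43e-06). These 3 genes, a ligand, a caspase and an executor from different steps of the pathways, each rose more than 9-fold. Casp12 went from 0, 0.85 and 0.175 CPM to 3.65, 4.17 and 2.77 CPM (3.33, SE 0.653, adjusted p = 0.0025), and with a WT library at 0 the size of its fold is loose. Casp1 went from 69.9, 69.3 and 67.5 CPM to 235, 245 and 236 CPM (1.79, adjusted p = 0.000285), and Gsdmd from 52.1, 58.0 and 49.9 CPM to 151, 186 and 170 CPM (1.66, adjusted p = 8.53e-06). For every member, all 3 treated libraries were above all 3 untreated ones, and the share of all genes separated in this way was not counted.

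Smaller rises were seen for Ripk3 (0.94, SE 0.172, adjusted p = 0.00165), Casp8 (0.89, SE 0.146, adjusted p = 0.000858), Nlrp3 (0.74, SE 0.155, adjusted p = 0.00371) and Ripk1 (0.72, SE 0.249, adjusted p = 0.041). Ripk1, the kinase that starts the necrosome, was at 97.8, 94.5 and 96.8 CPM and, with IFNγ, at 154, 173 and 150 CPM. Its groups lay well apart, yet the call was lost whichever of the 6 libraries was left out (adjusted p = 0.0791 to 0.12), and with the replicate number as a block (adjusted p = 0.0567). The block spanned all day 8 libraries. Same-numbered libraries with and without IFNγ deviated together in WT but not in cKO (r = -0.187 each). All 10 of the 10 members were called higher in WT, beside 40.1% of all 13075 genes called and 20% called higher. When the 2 libraries of unclear label were placed by their titles, no member was called in WT (adjusted p = 0.0776 to 0.16), with log2 fold changes as before, since they share the estimate of spread. When they were placed by their library names, all 10 were called.

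With IFNγ, levels per kilobase in WT were led by Casp1 (159 ± 3.85 CPM per kb), followed by Gsdmd (71.0 ± 7.44), Mlkl (66.6 ± 5.23) and Tnfsf10 (64.8 ± 12.4), which did not differ beyond their spread, and then Casp4 (41.2 ± 4.87). Tnfsf10 and Casp4, among the lowest members without treatment, thus stood above Casp8 (30.8 ± 2.76), Nlrp3 (29.3 ± 3.84), Ripk1 (19.1 ± 1.51) and Ripk3 (16.3 ± 1.74). Of the lists, 8 of 10 pyroptosis substrates and executors tested rose in WT, with Gbp2 at a mean of 8767 CPM against 12.0 CPM (9.51) and Gbp5 at 8.06, and 1 fell, the other gasdermin Gsdme (-1.22). The inflammasome list had 5 of 14 higher, led by Nlrc5 (3.23), Aim2 (1.23) and Pycard (1.15), and 1 lower, Nlrp10 (-1.03). The share of that list called, 42.9%, lies near the 40.1% of all genes called in this comparison (20% called higher). Among 27 death receptor and necroptosis genes 15 rose, led by Zbp1 (5.33), the death receptor Fas (3.34), the ubiquitin ligase Birc3 (2.38) and Tlr3 (2.16), and 3 fell. In the list of apoptotic caspase genes, 3 of 6 rose, among them Casp2 (0.94) and the apoptosome scaffold Apaf1 (0.81). The interferon list had 19 of 20 higher.

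In cKO BMDMs, 8 of 10 members were called higher with IFNγ, against 33.6% of all genes called and 17.2% called higher, and all from 2 libraries a group. Tnfsf10 was at 12.5 and 12.4 CPM untreated and at 173 and 629 CPM with IFNγ (5.02, SE 0.586, adjusted p = 0.000162). Casp4 was at 19.1 and 21.7 CPM and then 198 and 222 CPM (3.37, SE 0.192, adjusted p = 3.56e-06), and Mlkl at 27.3 and 27.5 CPM and then 165 and 219 CPM (2.82, SE 0.279, adjusted p = 6.13e-05). Casp12 (2.69, adjusted p = 0.0132), Gsdmd (1.99, adjusted p = 2.15e-05), Casp8 (1.45, adjusted p = 0.000245), Casp1 (1.41, adjusted p = 0.00511) and Ripk3 (0.73, adjusted p = 0.0239) were also higher. Nlrp3 (0.39, adjusted p = 0.139) and Ripk1 (0.14, adjusted p = 0.761) were not called. Ripk1 was at 57.4 CPM in replicate 1 with IFNγ, the library that stands apart, and at 142 CPM in replicate 2, against 95.1 and 90.4 CPM untreated. Leaving out 1 of these cKO libraries leaves its group with 1, which was then assumed to vary like the other groups, so the adjusted p-values of such fits hold no spread within that group. So fitted without replicate 1, all 10 members were called, Ripk1 at 0.64 (adjusted p = 0.00152), Nlrp3 at 0.56 (adjusted p = 0.0245) and Tnfsf10 at 5.68. Over the alternatives the adjusted p of Ripk1 ran from 0.00152 to 1 and that of Nlrp3 to 0.995. Without replicate 2, Ripk1 was lower with IFNγ (-0.72, adjusted p = 0.00289) and the Casp12 call was lost (2.31, adjusted p = 0.0908). Without untreated replicate 1, the calls of Casp1 (1.3, adjusted p = 0.0612), Casp12 (2.26, adjusted p = 0.11) and Ripk3 (0.48, adjusted p = 0.207) were lost. Placing the libraries of unclear label by their titles left no member called in cKO, and Ripk1 at -0.22.

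**Figure D2:**
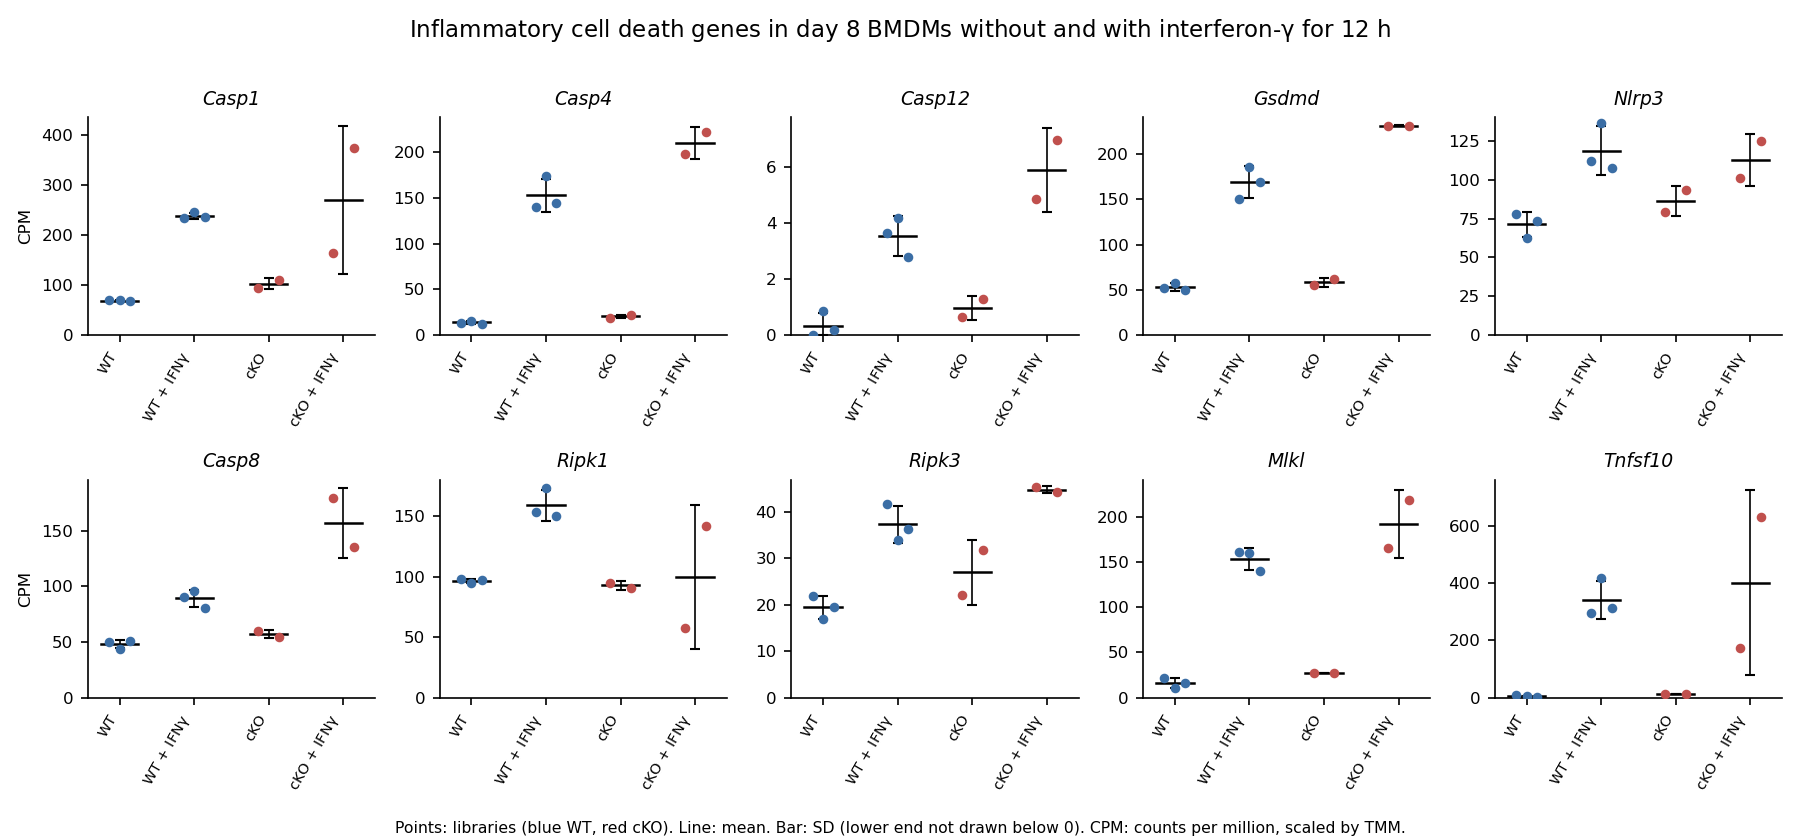
CPM of the 10 genes (y axis, a scale for each gene) in WT (blue, n = 3) and cKO (red, n = 2) BMDMs of day 8 without and with IFNγ (x axis), with the mean as a line and the SD as a bar. Every treated WT library is above every untreated one, and the 2 treated cKO libraries differ most for Tnfsf10 (173 and 629 CPM), Casp1 (165 and 374 CPM) and Ripk1 (57.4 and 142 CPM).

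The IFNγ effect itself was not shown to differ between genotypes for any member. The difference, cKO minus WT, was -1.03 for Tnfsf10 (SE 0.673, adjusted p = 0.66), 0.56 for Casp8 (SE 0.229, adjusted p = 0.576) and between -0.64 and 0.33 for the others. No gene of 13075 passed this test in edgeR, 1 member and 1105 of all genes had an unadjusted p under 0.05, and DESeq2 called none of the members. Without cKO replicate 2 with IFNγ, which leaves the library that stands apart as the only one of its group and takes the spread from the other groups, the difference was called for Casp1 (-1.14), Casp8 (0.73), Ripk1 (-1.44) and Tnfsf10 (-2.29), with adjusted p from 0.000313 to 0.0131. Without replicate 1 no member was called.

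Between genotypes on day 8, no member was called without treatment, against 0.612% of all genes. In edgeR 4 members had an unadjusted p under 0.05, and DESeq2 called none. Tnfsf10 (1.27, adjusted p = 0.66), Mlkl (0.74, adjusted p = 0.435), Casp1 (0.58, adjusted p = 0.821), Casp4 (0.55, adjusted p = 0.342) and Ripk3 (0.47, adjusted p = 0.685) each had both cKO libraries above the 3 WT libraries. With so few libraries such an order is easily reached, and the share of all genes that show it was not counted. With IFNγ, Casp8, the protease that restrains necroptosis, was at 90.8, 96.1 and 80.4 CPM in WT and 179 and 135 CPM in cKO (0.81, SE 0.161, adjusted p = 0.0238), 1 of 10 members against 4.83% of all genes (3.2% higher). The call was lost without WT replicate 1, 2 or 3 (0.83, 0.87 and 0.74, adjusted p = 0.0675, 0.0509 and 0.11) and kept without either cKO library. Without cKO replicate 1, which stands apart, the remaining cKO library was assumed to vary like the other groups, and 5 members were called higher in it: Casp1 (0.67, adjusted p = 0.00476), Casp8 (0.62, adjusted p = 0.0163), Casp4 (0.57, adjusted p = 0.0324), Gsdmd (0.48, adjusted p = 0.0454) and Tnfsf10 (0.91, adjusted p = 0.0467). Without cKO replicate 2, again with 1 cKO library left, Casp1 (-0.56), Tnfsf10 (-1) and Ripk1 (-1.50) were called lower and Gsdmd (0.43) higher (adjusted p = 0.00631, 0.0232, 4.48e-05 and 0.0427). Over all alternatives, the adjusted p ran up to 0.912 for Casp1, 0.688 for Casp8, 0.988 for Casp4, 0.993 for Gsdmd, 0.99 for Tnfsf10 and 0.817 for Ripk1. The direction for Casp1, Ripk1 and Tnfsf10 thus depended on which of the 2 cKO libraries was used. Stromal markers summed to 54.4 to 344 CPM in the treated cKO libraries and 8.79 to 51.5 CPM in the treated WT libraries, and their part in these values was not tested. Up to 3 of the 5 stromal markers were under 1 CPM in a treated WT library. B cell markers were lower in cKO without (1.54 to 2.44 CPM against 7.68 to 13.8) and with IFNγ (3.02 to 3.65 against 11.5 to 25.9). Progenitor markers were higher without (44.8 to 58 against 10.9 to 41.4) and with it (22.1 to 26 against 3.72 to 21). So were peritoneal macrophage markers with IFNγ (39.2 to 48.4 against 17 to 37.2). Up to 5 of 5 B cell and 4 of 5 progenitor markers were under 1 CPM in a library. The part of these markers was not tested.

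In peritoneal macrophages no member was called between genotypes, against 0.971% of all genes. In edgeR 2 members had an unadjusted p under 0.05, and DESeq2 called none. Ripk3 was at 36.6, 47.8 and 30.6 CPM in WT and 58.0, 77.6 and 58.6 CPM in cKO, and Mlkl at 30.7, 29.0 and 22.3 CPM and 32.3, 43.5 and 39.9 CPM. Both necroptosis genes had every cKO library above every WT library, with log2 fold changes of 0.76 (adjusted p = 0.232) and 0.50 (adjusted p = 0.453). Casp1 (-0.14), Casp4 (-0.19), Gsdmd (0.22), Nlrp3 (0.29) and Tnfsf10 (0.16) overlapped between the groups. Tnfsf10 was at 3.71, 6.17 and 5.33 CPM in WT and 5.86, 4.49 and 6.89 CPM in cKO. In the same libraries 10 of 19 interferon genes tested were higher in cKO.

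In BMDMs without antibody, Casp1, Mlkl and Tnfsf10 were higher in cKO, 3 of 9 members against 7.1% of all genes (3.39% higher). Casp1 was at 38.5, 27.2 and 28.6 CPM in WT and 64.7, 61.8 and 60.7 CPM in cKO (0.99, SE 0.132, adjusted p = 0.000585), and the call was kept whichever library was left out. Mlkl was at 9.24, 3.72 and 4.96 CPM in WT and 16.5, 15.9 and 10.4 CPM in cKO (1.26, SE 0.339, adjusted p = 0.035). Tnfsf10 had 11, 1 and 1 counts in WT and was at 3.84, 2.24 and 0.911 CPM in cKO (3.39, SE 0.89, adjusted p = 0.0319). Both were lost without cKO replicate 1 or 2 or WT replicate 2 or 3, at log2 fold changes of at least 1.01 for Mlkl and 2.80 for Tnfsf10 (adjusted p up to 0.176 and 0.154). With the control antibody, Casp1 was at 32.3, 30.2 and 25.3 CPM in WT and 72.6, 65.0 and 74.3 CPM in cKO (1.27, SE 0.133, adjusted p = 6.81e-05), the only 1 of 9 members called, against 4.45% of all genes (2.88% higher). Ripk3 (0.85, adjusted p = 0.0507), Casp4 (0.73, adjusted p = 0.0633), Mlkl (0.68, adjusted p = 0.357) and Tnfsf10 (3.68, adjusted p = 0.1) had every cKO library above WT. DESeq2 called 4 members there. Ripk3 was called without WT replicate 1 (1.08, adjusted p = 0.0381, range over the alternatives 0.00688 to 0.265). Neutrophil markers, up to 7 of 8 of them under 1 CPM in a library, summed higher in cKO without overlap in all 3 arms, at 73.9 to 96.5 CPM against 36.4 to 66.1 CPM without antibody, 104 to 213 CPM against 60.6 to 78.4 CPM with the control antibody and 114 to 139 CPM against 58.3 to 83.2 CPM with the IFNAR1 antibody. B cell markers were lower in cKO without antibody (5.87 to 9.85 CPM against 13.2 to 21 CPM) and with the control antibody (2.59 to 5.72 CPM against 7.59 to 8.26 CPM). With the control antibody, progenitor markers (14 to 18.4 CPM against 3.84 to 7.42 CPM) and peritoneal macrophage markers (121 to 164 CPM against 51.7 to 88.7 CPM) were higher in cKO. Up to 4 of 5 B cell, 4 of 5 progenitor and 1 of 3 peritoneal macrophage markers were under 1 CPM in a library of these comparisons. The part of all these markers in the values was not tested.

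With the IFNAR1 antibody, which blocks the receptor for type I interferons, no member was called between genotypes, against 0.675% of all genes. In edgeR 3 members had an unadjusted p under 0.05, and DESeq2 called none. Casp1 was at 35.2, 33.9 and 36.5 CPM in WT and 43.8, 44.6 and 43.2 CPM in cKO, still without overlap (0.32, SE 0.131, adjusted p = 0.365). Casp4 was at 13.3, 10.7 and 12.7 CPM and 25.6, 18.2 and 15.1 CPM (0.68, adjusted p = 0.2). Tnfsf10 was at 0, 0 and 0.416 CPM in WT and at 0.824, 1.02 and 1.43 CPM in cKO (2.86, adjusted p = 0.259). It was called without WT replicate 3, the only WT library with counts of it (adjusted p = 0.0283, range over the alternatives to 0.958), where no size of fold can be read. The cKO values of Mlkl (4.95, 10.9 and 8.67 CPM) overlapped those of WT (5.07, 4.83 and 8.88 CPM). In this arm 15 of 20 interferon genes were higher in cKO.

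Against the control antibody, the IFNAR1 antibody lowered Casp1 in cKO cells, from 72.6, 65.0 and 74.3 CPM to 43.8, 44.6 and 43.2 CPM (-0.69, SE 0.132, adjusted p = 0.0136), 1 of 9 members against 4.03% of all genes (1.69% lower). In the same cKO arms stromal markers went from 164 to 306 CPM to 42.4 to 87.2 CPM, peritoneal macrophage markers from 121 to 164 CPM to 73.7 to 86.8 CPM and progenitor markers from 14 to 18.4 CPM to 1.59 to 12.6 CPM, and B cell markers from 2.59 to 5.72 CPM to 9.34 to 18.5 CPM, and their part was not tested. In cKO with the IFNAR1 antibody, up to 5 of 5 progenitor, 3 of 5 B cell and 2 of 5 stromal markers were under 1 CPM in a library. The Casp1 call was lost only without control antibody replicate 3 of cKO among the libraries left out in turn (-0.65, adjusted p = 0.0782). In WT cells Casp1 was not called (0.26, SE 0.131, adjusted p = 0.173), with every library of the IFNAR1 arm above the control arm. The difference of the 2 effects was -0.95 (SE 0.186), and at an adjusted p of 0.201 over 17191 genes it did not pass edgeR's test. None of the members did, with 2 at an unadjusted p under 0.05, nor any of all genes, 975 of which were at an unadjusted p under 0.05, while DESeq2 called Casp1 alone among the members. Ripk3 was higher with the IFNAR1 antibody in WT, at 12.5, 7.65 and 9.06 CPM in the control arm and 19, 30.2 and 21.3 CPM in the IFNAR1 arm (1.27, SE 0.231, adjusted p = 0.00462), 1 of 9 members against 9.89% of all genes (6.83% higher). That call was kept whichever library was left out. In cKO it was at 18.1, 16.3 and 18.1 CPM and 25, 27.3 and 20.5 CPM (0.47, adjusted p = 0.271). Replicate 2 of the IFNAR1 arm in WT stands apart for Nlrp3 (80.0 CPM against 290 and 273 CPM) and H3f3a (93.8 CPM against 43.4 and 35.3 CPM). Without it Nlrp3 was called in WT (1.09, adjusted p = 0.00864), in place of 0.70 (adjusted p = 0.14, range over the alternatives to 0.457). Without replicate 3 of that arm, Gsdmd (0.56), Mlkl (-0.95) and Ripk1 (-0.65) were called, with adjusted p of 0.025, 0.0483 and 0.0196 (ranges to 0.304, 0.497 and 0.446).

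The control antibody itself went with lower Ripk3 and Nlrp3. In WT, Ripk3 was at 27.1, 17.4 and 17.7 CPM without antibody and 12.5, 7.65 and 9.06 CPM with the control antibody (-1.09, SE 0.231, adjusted p = 0.014), and Nlrp3 at 340, 208 and 280 CPM and 128, 129 and 138 CPM (-1.07, SE 0.321, adjusted p = 0.0497). These were 2 of 9 members against 8.9% of all genes (5.63% lower). The call of Nlrp3 was lost without any 1 of the 6 libraries (adjusted p = 0.0662 to 0.159) and with the replicate block (adjusted p = 0.0537), and that of Ripk3 without control replicate 2 or 3 (adjusted p = 0.0883 and 0.0658). The block spanned all antibody arms, and same-numbered libraries deviated together between these 2 WT groups (r of 0.145 to 0.284). Mlkl was called without untreated replicate 1 (1.14, adjusted p = 0.0387, range to 0.541). In cKO, Nlrp3 was at 268, 282 and 234 CPM and 134, 122 and 102 CPM (-1.13, adjusted p = 0.0984), and Ripk3 at 32.1, 30.0 and 23.5 CPM and 18.1, 16.3 and 18.1 CPM (-0.70, adjusted p = 0.148), in both cases with no overlap. No member was called in cKO, where 1.46% of all genes were, with 3 members at an unadjusted p under 0.05 in edgeR and 1 called by DESeq2. The 2 comparisons share the control antibody libraries with those of the IFNAR1 antibody, so the rise of Ripk3 and Nlrp3 in the IFNAR1 arm and their fall in the control arm are not independent. In the IFNAR1 arm Nlrp3 was at 249 to 296 CPM in cKO, near its level without antibody. Lyz2 was also at another level in the control arm of WT, 22954 to 23380 CPM against 5282 to 11375 CPM without antibody.

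**Figure D3:**
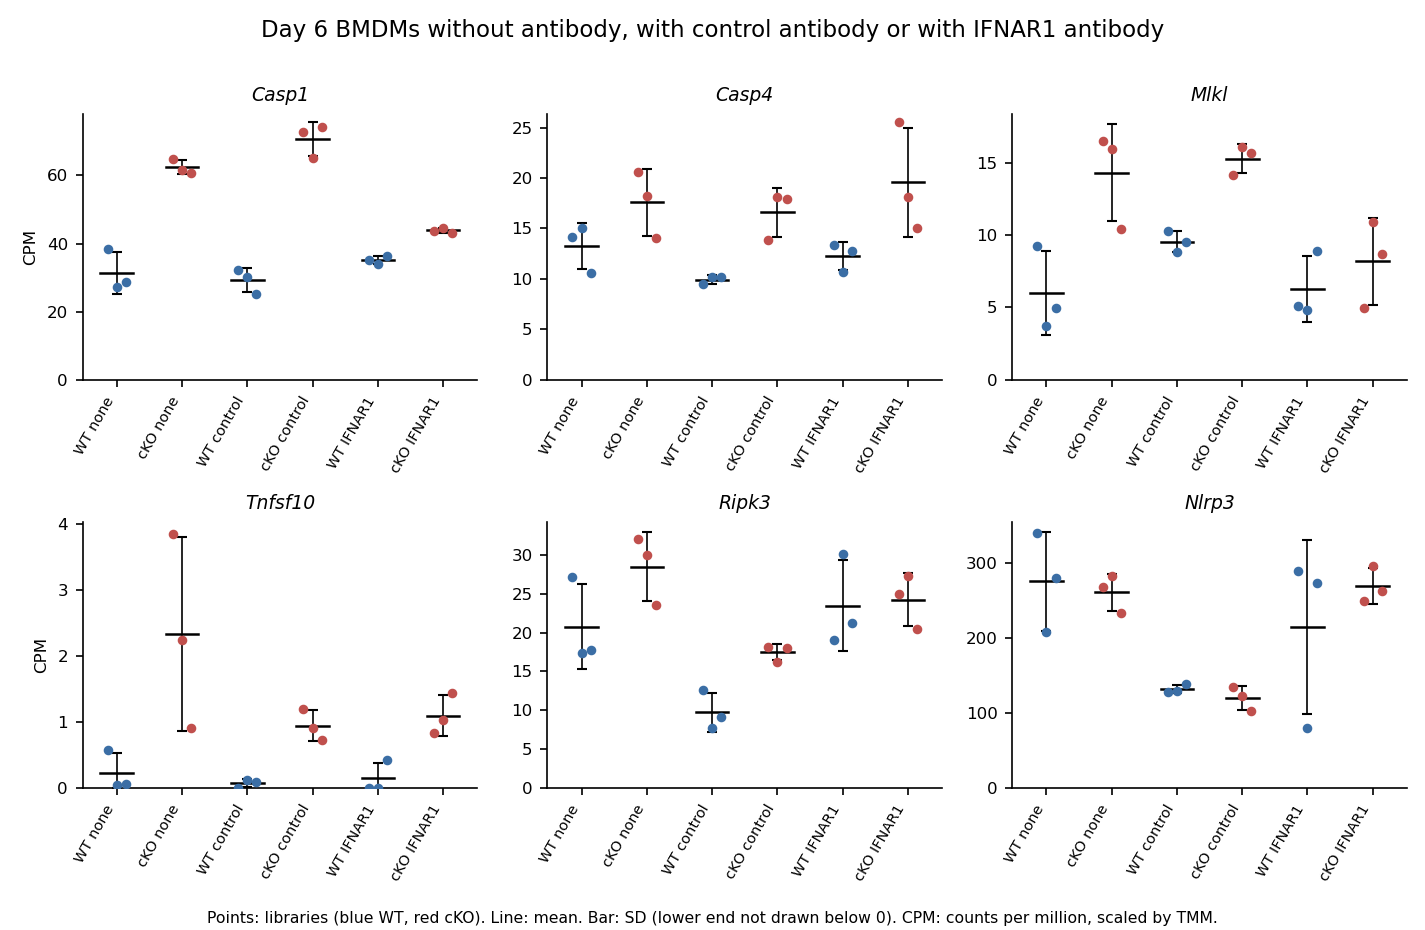
CPM of 6 of the genes (y axis, a scale for each gene) in WT (blue) and cKO (red) BMDMs given no antibody, the control antibody or the IFNAR1 antibody (x axis, n = 3 each), with the mean as a line and the SD as a bar. Casp1 in cKO falls from between 65.0 and 74.3 CPM with control antibody to between 43.2 and 44.6 CPM with IFNAR1 antibody, and Nlrp3 is low in both control arms.

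In the 3 sets of BMDMs that accompanied the double KOs, Casp1, Mlkl and Tnfsf10 were higher in cKO in every set. Casp1 was at 51.1 to 63.3 CPM in the 9 WT libraries and 75.9 to 89.4 CPM in the 9 cKO libraries. Its log2 fold changes were 0.62, 0.49 and 0.59 in sets 1, 2 and 3 (SE 0.0934, 0.0925 and 0.0932, adjusted p = 1.59e-05, 0.000362 and 2.58e-05). Mlkl was at 15 to 23.3 CPM in WT and 27.1 to 33.7 CPM in cKO (0.65, 0.48 and 0.57, adjusted p = 0.000158, 0.004 and 0.000619). Tnfsf10 was at 1.66 to 5.16 CPM in WT and 5.87 to 8.19 CPM in cKO (1.37, 1.73 and 1, adjusted p = 0.000446, 5.58e-05 and 0.00549). These 9 calls were kept whichever library was left out. For none of these genes did a WT library of any set reach a cKO library of any set.

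The other members differed between sets. Casp4 was called in set 2, at 8.16, 7.1 and 8.02 CPM in WT and 11.8, 14.9 and 12.1 CPM in cKO (0.74, SE 0.144, adjusted p = 0.000491), and in set 1 with overlapping libraries (0.37, adjusted p = 0.0472), where it was lost without WT replicate 2 or 3 or any cKO library (adjusted p up to 0.205). Casp8 was called in set 2 (0.35, adjusted p = 0.000875), and in set 1 only without WT replicate 1 (0.22 in place of 0.12, adjusted p = 0.0236). Ripk3 was called in set 2, at 35.1, 36.1 and 39.6 CPM in WT and 53.6, 59.6 and 57.7 CPM in cKO (0.63, SE 0.143, adjusted p = 0.00222), and in set 3 (0.41, adjusted p = 0.0299), where leaving out cKO replicate 2 or 3 or WT replicate 1 ended it (0.42, 0.34 and 0.22, adjusted p = 0.0567, 0.127 and 0.225). Nlrp3 was called in set 1 (0.38, adjusted p = 0.0373), not without cKO replicate 1 or 3 or WT replicate 2 or 3 (adjusted p up to 0.163), and in set 3 it was called without WT replicate 1 (0.56 in place of 0.28, adjusted p = 0.000309). Ripk1 was the one member lower in cKO, in set 1 (-0.16, SE 0.0562, adjusted p = 0.0251) and in set 3 (-0.21, SE 0.0562, adjusted p = 0.00419), at 119, 121 and 120 CPM in WT and 101, 104 and 103 CPM in cKO of set 3. In set 1 that call was lost without any cKO library or WT replicate 1 or 2 (adjusted p up to 0.134). Gsdmd was called in no set (-0.15, 0.21 and -0.07). Casp12, at 3 to 7 counts in WT and 10 to 19 counts in cKO of set 1, was called there (1.31, adjusted p = 0.0252), not without cKO replicate 1 or WT replicate 2 or 3 (adjusted p up to 0.128), and in set 2 it was called only without WT replicate 2 among the libraries left out (1.5 in place of 1.06, adjusted p = 0.032, range over the alternatives to 0.245). In all, 7 of 10 members were called in set 1 (6 higher and 1 lower), 6 in set 2 (all higher) and 5 in set 3 (4 higher and 1 lower). Of all genes, 34.7%, 21% and 34.9% were called, 18%, 9.74% and 16.9% higher and, in sets 1 and 3, 16.7% and 18% lower. The libraries of sets 1 and 3 with the same number deviated together in cKO (r of 0.21 to 0.534, against at most 0.0632 for other numbers). In WT their r was 0.0546 to 0.713, and other numbers reached 0.47, so these sets were not shown to be independent. Progenitor markers summed to 68.8 to 159 CPM in the cKO sets and 7.81 to 23.1 CPM in the WT sets. In sets 1 and 3 neutrophil markers were also higher in cKO (198 to 288 CPM against 96.8 to 157 CPM) and B cell markers lower (37.6 to 59.3 CPM against 95.1 to 192 CPM). Up to 3 of the 5 B cell markers were under 1 CPM in a library. The part of all these markers was not tested.

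**Figure D4:**
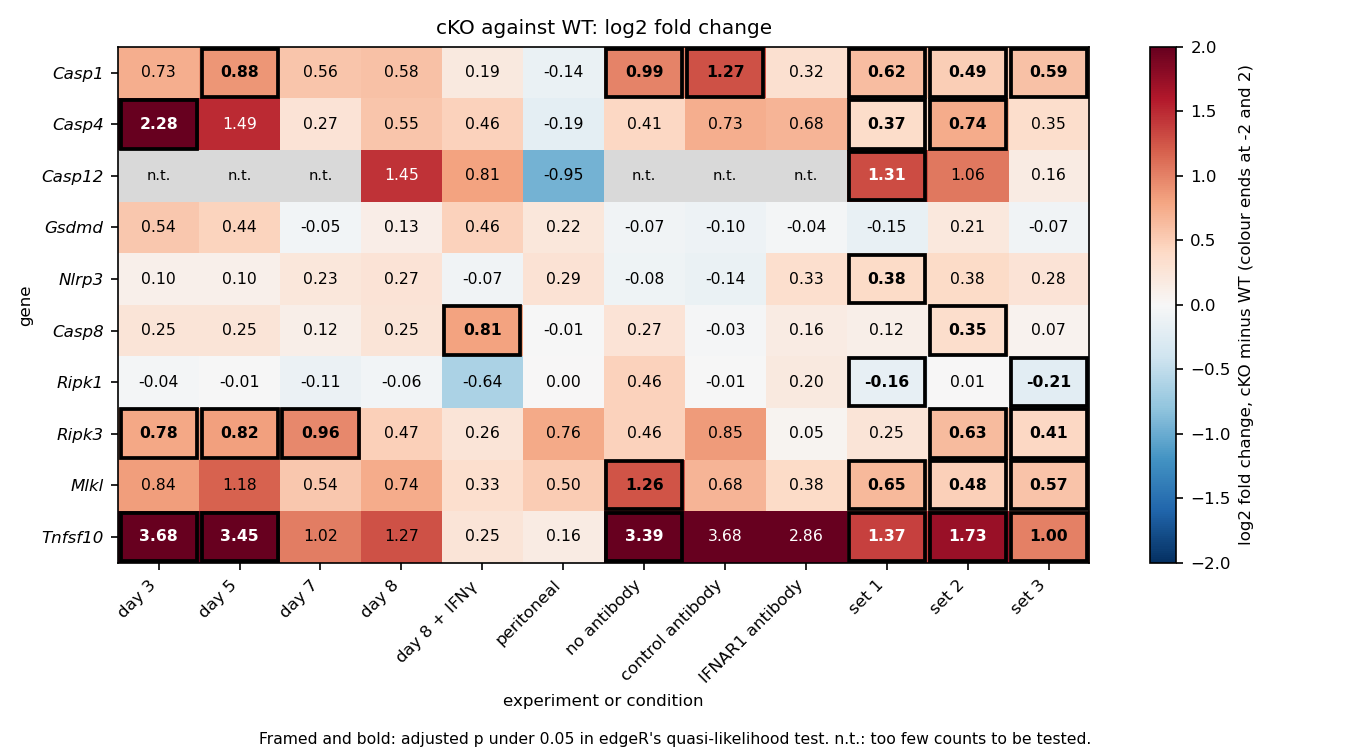
Log2 fold change of cKO against WT (colour and number, ending in colour at -2 and 2) for the 10 genes (rows) in the 12 comparisons of the genotypes (columns), with calls framed and genes with too few counts marked n.t. Ripk3, Mlkl and Tnfsf10 are above 0 in all 12 columns (Tnfsf10 with IFNγ only with both cKO libraries or without replicate 1), and Gsdmd runs from -0.15 to 0.54 with no call.

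Across the 12 comparisons of cKO with WT, Tnfsf10, Mlkl and Ripk3 had a log2 fold change above 0 in all 12 and were called in 6, 4 and 5, although that of Tnfsf10 on day 8 with IFNγ turned below 0 without cKO replicate 2 (-1). Among results never called, the sign also changed for Ripk3 with the IFNAR1 antibody (0.05, in 3 of 12 alternatives), Tnfsf10 in peritoneal macrophages (0.16, in 2 of 11) and Mlkl on day 8 with IFNγ (0.33, in 1 of 13, at -0.17). Casp1 was above 0 in 11 and called in 6, and Casp4 above 0 in 11 and called in 3. Both were below 0 only in peritoneal macrophages, where the sign of Casp4 changed in 1 of 11 alternatives. Casp8 was above 0 in 10 and called in 2, and Nlrp3 in 9 and called in 1. Gsdmd was above 0 in 6 and never called. Ripk1 was above 0 in 3, called lower in 2 and never called higher. The 12 comparisons share no library, though sets 1 and 3 were not shown to be independent. Same-numbered libraries also deviated together between days 3 and 7 in cKO (r of 0.138 to 0.415). They did so with and without IFNγ in WT (0.335 to 0.451) and between control and no antibody in WT (0.145 to 0.284). The comparisons within these experiments were therefore not shown to be independent either.

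In the double KOs, loss of Sting, the adaptor of the cytosolic DNA sensor, went with higher Casp4, Casp12 and Gsdmd and slightly lower Casp1 than in the mean of the cKO sets. Casp4 was at 18.8, 22.1 and 21.8 CPM in cKO:StingKO, above all 9 cKO libraries of the sets (11.8 to 15.8 CPM, log2 fold change 0.52, SE 0.112, adjusted p = 0.000796). Casp12 was at 0.851, 0.865 and 0.74 CPM against 0.259 to 0.623 CPM (1.04, SE 0.281, adjusted p = 0.00554). Gsdmd was at 82.9, 80.6 and 85.6 CPM against 61.6 to 70.2 CPM (0.35, SE 0.0707, adjusted p = 0.00048). These 3 pyroptosis genes did not overlap with the cKO sets, and their calls were kept whichever library was left out. With cKO set 1 as the only reference, Casp12 was not called (adjusted p = 0.109), and Casp4 and Gsdmd were (0.0248 and 0.0094). Sets 1 and 3 were not shown to be independent, so adjusted p-values against the mean of the sets may be too low. Casp1, at 62.6, 83.7 and 69.7 CPM, overlapped (-0.21, adjusted p = 0.0306), and its call was lost without cKO:StingKO replicate 1 or 3 or replicate 3 of cKO set 3 (-0.13, -0.19 and -0.20, adjusted p = 0.287, 0.127 and 0.0517). The 4 calls stand beside 36.1% of all genes called in this comparison (18.9% higher and 17.2% lower). Stromal markers summed to 163 to 201 CPM in cKO:StingKO and 23.6 to 70.0 CPM in the cKO sets, where up to 3 of the 5 were under 1 CPM in a library. Neither this nor the parent strain of the Sting allele was tested as a part of the differences.

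Neither the libraries labelled cKO:MavsKO nor cKO:Irf7KO had a member called against the cKO sets, where 8.79% and 9.85% of all genes were called. In each, 2 members had an unadjusted p under 0.05 in edgeR, and DESeq2 called none. In the libraries labelled cKO:MavsKO, for the adaptor of cytosolic RNA sensors, whose label the Mavs counts did not check, Casp12 was the largest difference (0.84, adjusted p = 0.0585), called without replicate 1 of cKO set 1 or replicate 3 of cKO set 2 (0.93 and 0.90, adjusted p = 0.046 and 0.0492, range over the alternatives to 0.762). In cKO:Irf7KO, Tnfsf10 was at 10.5, 8.36 and 9.29 CPM and Mlkl at 34.8, 36.4 and 35.4 CPM, all above the cKO sets, with log2 fold changes of 0.40 (adjusted p = 0.243) and 0.20 (adjusted p = 0.19). Against the mean of the WT sets, Casp1, Mlkl and Tnfsf10 remained higher in each double KO. Casp1 was at 0.35, 0.64 and 0.57 in the libraries labelled cKO:StingKO, cKO:MavsKO and cKO:Irf7KO, Mlkl at 0.67, 0.58 and 0.77, and Tnfsf10 at 1.76, 1.23 and 1.77 (adjusted p from 1.76e-07 to 0.000557), calls kept whichever library was left out. Casp4 was higher than WT in cKO:StingKO (1.01) and cKO:Irf7KO (0.75) and Ripk3 in cKO:StingKO (0.40) and the libraries labelled cKO:MavsKO (0.64). Casp12 was higher in the same 2 groups (1.88 and 1.68), Gsdmd in cKO:StingKO (0.35) and Casp8 in the libraries labelled cKO:MavsKO (0.32). In the latter Nlrp3 was called as well (0.31, adjusted p = 0.0285), not without any 1 of its own 3 libraries (adjusted p = 0.0605 to 0.094). The counts against WT were 7, 7 and 4 of 10 members, all higher, beside 40.3%, 42.6% and 31.5% of all genes called and 20.5%, 21.8% and 14.8% called higher. Stromal markers summed to 163 to 201 CPM in cKO:StingKO, 82.1 to 293 CPM in the libraries labelled cKO:MavsKO and 29.6 to 47.8 CPM in cKO:Irf7KO. They summed to 23.6 to 70.0 CPM in the cKO sets and 11.2 to 87.2 CPM in the WT sets. Their part in the values of Casp12 and the other members was not tested. Calls that came only when a library was left out were those of Casp4 in the libraries labelled cKO:MavsKO (without its replicate 3 or replicate 1 of WT set 1 or 3, 0.30 to 0.36, adjusted p = 0.00712 to 0.0462), Nlrp3 in cKO:StingKO (without replicate 1 of WT set 3, 0.26, adjusted p = 0.00823) and in cKO:Irf7KO (without replicate 1 of WT set 1 or 3, 0.32 and 0.34, adjusted p = 0.0124 and 0.00133), and Ripk1 (without replicate 3 of WT set 1, -0.12, adjusted p = 0.0352) and Ripk3 in cKO:Irf7KO (without its replicate 1, replicate 3 of WT set 1 or replicate 2 of WT set 3, 0.31 to 0.36, adjusted p = 0.0353 to 0.049). Over the alternatives these 5 had adjusted p up to 0.814, 0.494, 0.337, 0.837 and 0.379. All 3 comparisons share the WT libraries, and the labels tie no set to a double KO. Sets 1 and 3 were not shown to be independent, so adjusted p-values against the mean of the sets may be too low. Leaving out 1 library cannot test this. With each single WT set as reference, Casp1, Mlkl and Tnfsf10 were still called in each double KO (adjusted p at most 0.029).

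**Figure D5:**
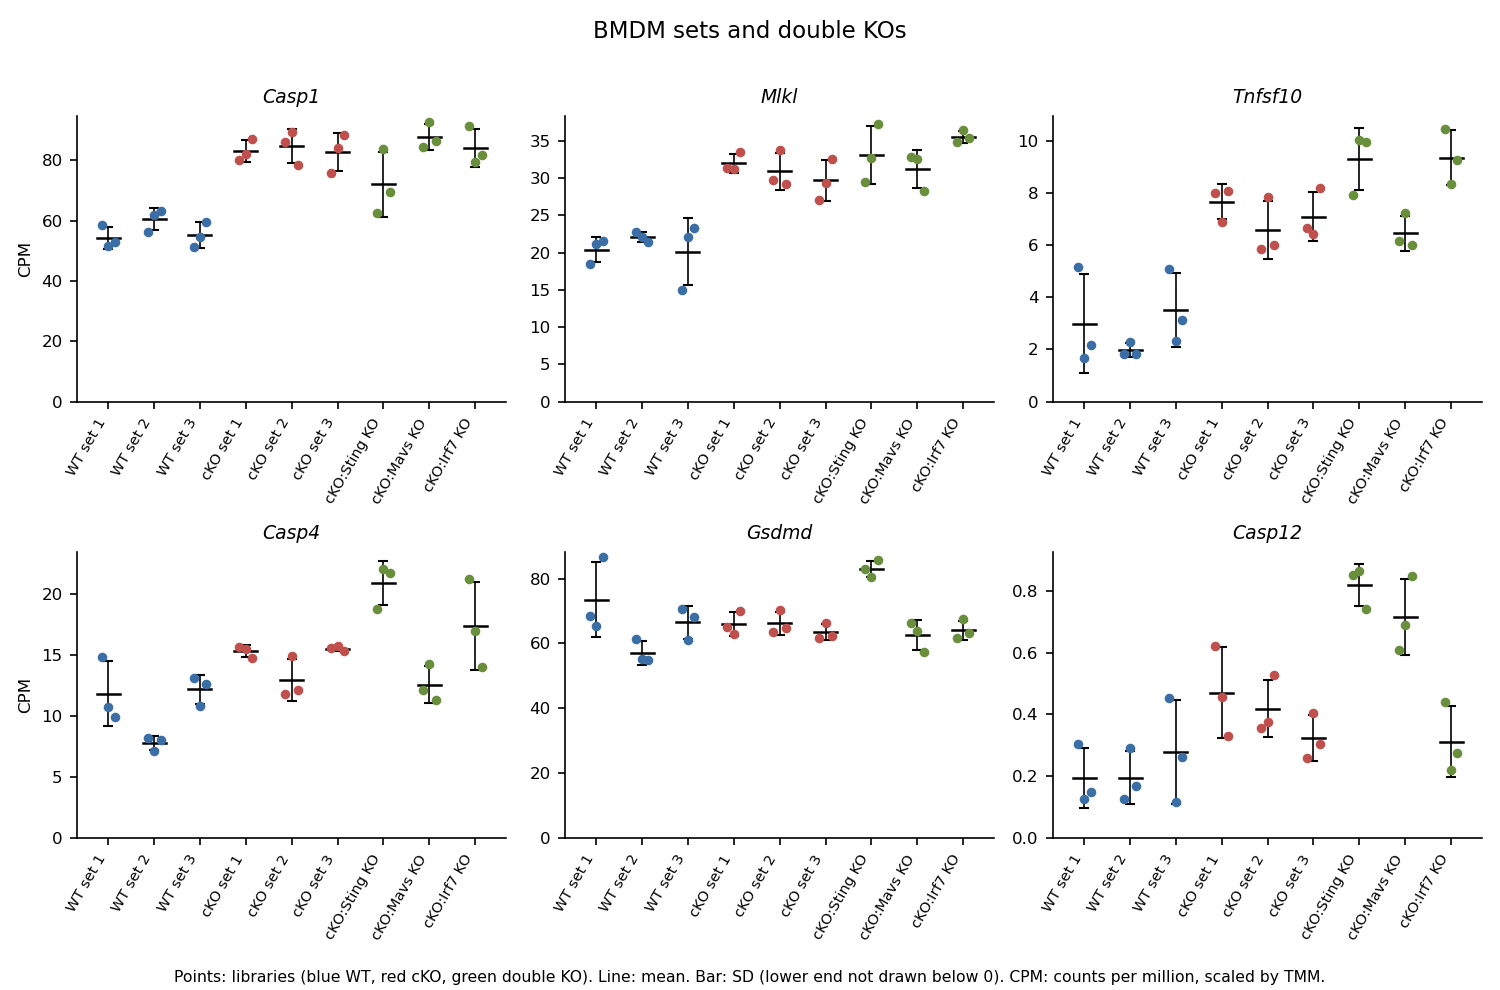
CPM of 6 of the genes (y axis, a scale for each gene) in the 3 WT sets (blue), the 3 cKO sets (red) and the 3 double KOs (green), n = 3 each (x axis), with the mean as a line and the SD as a bar. Mlkl and Tnfsf10 are above every WT library in all double KOs (at least 28.2 and 6 CPM), and Casp4, Gsdmd and Casp12 in cKO:StingKO (at least 18.8, 80.6 and 0.74 CPM) are above every cKO library of the sets.

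Patterns over the 27 groups were compared as Pearson's r of group means of log2 CPM, each centred on its experiment, among 11170 genes tested throughout. Such r describe these groups, which differ in depth and treatment. The genes most like Tnfsf10 were Ifi47 (0.987), Phf11b (0.976) and Gbp7 (0.974), and the genes most like Casp4 were Trafd1 (0.965), Nod1 (0.963) and Gbp2 (0.961). Gsdmd was most like Fgl2 (0.967), Max (0.958) and Irf1 (0.957), Mlkl like Slco3a1 (0.954), Creb3 (0.949) and Rgs14 (0.939), and Casp1 like Ifi205 (0.94), Rhoh (0.925) and Gbp4 (0.921). Lower values were reached for Casp8 (Usp25, 0.924), Ripk1 (Fcgr3, 0.893), Nlrp3 (Creb5, 0.841) and Ripk3 (Ston2, 0.834). Among the members, Casp4 and Tnfsf10 were the closest pair (0.93), followed by Casp1 with Tnfsf10 (0.91) and Casp1 with Mlkl (0.907). Casp12 was not tested in every experiment and was left out.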

How the data were processed

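RNA-seq libraries of mouse macrophages and their bone marrow progenitors were analysed from the counts per gene that the authors deposited, 1 file a library. The counts were made with Cutadapt and STAR on mm10 (versions not given in the sources used here). The unstranded column was used, and the lines for unmapped, multimapping, ambiguous and unassigned reads were left out of library sizes, which held 3614967 to 45564225 counts. The study's methods name RSEM and SARTools for its own tests. The number of counts limits precision, and Casp12 and, in WT cells, Tnfsf10 rest on few.

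Each of the 5 experiments was fitted by edgeR's quasi-likelihood test (edgeR 4.0.16, limma 3.58.1, R 4.3.3) over its groups, after filterByExpr (minimum count 10, total 15) and TMM scaling, with Benjamini-Hochberg adjustment over all genes tested and a call at adjusted p below 0.05. SE is that of the log2 fold change. Log2 CPM used a prior count of 2. All adjusted p-values come from this fit unless DESeq2 (1.42.0) is named. The procedure was tested on simulated data. The labels gave the groups, 2 libraries with conflicting labels stayed out, and deposited comparisons were not used.

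The 10 members and all gene lists were chosen with earlier results of these data known. Named list genes were those called between cKO and WT on day 3 or by IFNγ in WT, at most 4 a list by size of change where the log2 CPM averaged 1 or more, and single genes called lower were named after their values were seen. Some genes this rule names are not reported here. The genes most alike each member were the 3 with the highest Pearson's r. Alternatives were RLE scaling, no filter, DESeq2, the stranded column with the larger total, only the groups compared, the replicate number as a block, single sets as reference, both placements of the 2 libraries, and leaving out each library.

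Same-numbered libraries deviated together (r above 0.1 in every pair) between cKO and WT on day 3 (0.126 to 0.419), on day 7 (0.153 to 0.467) and in peritoneal macrophages (0.144 to 0.194), between days 7 and 3 in cKO (0.138 to 0.415), with IFNγ in WT (0.335 to 0.451), and between control and no antibody in WT (0.145 to 0.284). There the numbers were taken to pair libraries on the evidence of the counts alone. Libraries of other numbers were not compared there, and each block spanned its whole experiment, also groups without such r. Promoter windows are from RefSeq (GRCm38.p6).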

Additional observations from a re-analysis of the deposited data

Results flagged for a closer look

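Against the control antibody, the IFNAR1 antibody moved Casp1 in opposite directions in the genotypes, by 0.26 on the log2 scale in WT, where all 3 libraries were above the control arm, and by -0.69 in cKO, where all 3 were below it. The difference of the effects (-0.95) did not pass edgeR's test (adjusted p = 0.201), with 0.00101 (DESeq2) to 0.7 over the alternatives.

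Of the 2 day 8 cKO libraries that entered no group, the one with IFNγ in its library name but not its title (10498769 counts) was above every untreated day 8 library for all 10 members. It had 314 CPM of Casp1, 204 CPM of Casp4, 127 CPM of Casp8, 7.82 CPM of Casp12 and 210 CPM of Gsdmd. It had 104 CPM of Nlrp3, 144 CPM of Ripk1, 41.7 CPM of Ripk3, 208 CPM of Mlkl and 643 CPM of Tnfsf10. The library with IFNγ in its title only (9674853 counts) was above all untreated libraries for 0 of 10 members, with 92.3 CPM of Casp1 and 8.29 CPM of Tnfsf10. Neither was assigned a condition from these values. Groups of at most 3 libraries allowed no test for single outlying samples.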

How the results depend on the processing

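Of 140 pairs of a member and a comparison called under some setting, 79 were called as reported. Of their 2094 values under alternatives, 1803 kept direction and side of the threshold, 146 lost the call, 127 gained one and 18 changed direction. Of 1939 values of the 136 pairs never called, 122 changed sign. Of 422 counts of members called, 336 stayed within 1.5 times. The cause of the changes below was not tested. Where a comparison is not named under a setting, its count stayed within 1.5 times.

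With the replicate block, where the numbers were taken to pair the libraries, the count went from 3 to 6 on day 3, and with control against no antibody in WT from 2 to 1. Ripk1 lost its call with IFNγ in WT. The block moved no other count there by over 1.5 times. Elsewhere libraries share only a number (day 8 cKO with and without IFNγ, 2 pairs, r = -0.187 each), and the block gave 5 on day 5 (3 without), 1 for day 7 less day 3 (0), 0 between genotypes with IFNγ (1), 2 with the control antibody (1) and 2 for the IFNAR1 against the control antibody in cKO (1). Tnfsf10 with IFNγ came to -0.02059 between genotypes. With only the groups compared, the counts were 6 on day 3, 1 on day 5, 0 on day 7, 2 for day 7 against 3 in each genotype (4 in WT and 1 in cKO as reported), 1 on day 8 untreated (0), 0 with IFNγ, 4 with the control antibody, 2 and 0 for the IFNAR1 antibody in cKO and WT, 2 for control against none in cKO (0), 3 in set 1 (7), 2 for cKO:Irf7KO and 1 for the libraries labelled cKO:MavsKO against cKO (0 each).

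With no filter the counts were 2 for day 7 less day 3, 5 on day 5, 1 on day 8 untreated, 0 with IFNγ, 1 in peritoneal macrophages (0), 3 with the control antibody, 1 for control against none and 2 for IFNAR1 against control in cKO, and 1 for cKO:Irf7KO. DESeq2 called 1 for day 7 less day 3, 2 with IFNγ between genotypes, 4 with the control antibody, 1 for control against none in cKO, 2 for IFNAR1 against control in each genotype and 1 for their difference. RLE scaling gave 2 for IFNAR1 against control in cKO, and the stranded column 2 with the control antibody. Library names gave 2 between genotypes with IFNγ, and titles 0 there, 0 with IFNγ in WT and 0 in cKO. With titles, Casp1 (-0.1834), Casp4 (-0.06833) and Tnfsf10 (-0.3351) between genotypes with IFNγ, Ripk1 with IFNγ in cKO (-0.2178) and Casp8 in the difference (-0.2921) changed direction. The stranded column turned Ripk1 between genotypes with IFNγ (0.09321) and in the difference (0.2023). Set 2 as WT reference turned Ripk1 in cKO:Irf7KO (0.02872), cKO:MavsKO (0.05053) and cKO:StingKO (0.04728) and Gsdmd in cKO:MavsKO (0.1315), and set 3 as cKO reference turned Ripk3 in cKO:Irf7KO (0.02326). Single cKO references gave 2 for cKO:Irf7KO (set 2), 1 for cKO:MavsKO (set 3) and 2 for cKO:StingKO (set 1, 4 as reported).

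Leaving out 1 library at a time (a lone day 8 cKO library was assumed to vary like the other groups), the counts ran from 0 to 4 on day 5, 0 to 2 on day 7, 2 to 4 and 0 to 1 for day 7 against 3 in WT and cKO, 0 to 5 between genotypes with IFNγ, 5 to 10 with IFNγ in cKO, 0 to 4 for the difference, 1 to 3 without antibody, 1 to 2 with the control antibody, 0 to 1 with the IFNAR1 antibody, 1 to 4 and 0 to 1 for IFNAR1 against control in WT and cKO, 0 to 2 for control against none in WT, 3 to 7 in set 1 and 0 to 1 for cKO:MavsKO against cKO. Directions turned for Casp1 (-0.5618 to 0.67) and Tnfsf10 (-1.003 to 0.91) between genotypes with IFNγ, Ripk1 with IFNγ in cKO (-0.7225 to 0.64), Casp1 in the difference (-1.14 to 0.1215) and Ripk1 in cKO:StingKO against cKO (-0.009113 to 0.06645). Across the comparisons RLE moved the median log2 fold change of all genes by at most 0.0527.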

Other observations

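Of 12 pyroptosis substrates and executors tested in the antibody arms, with no antibody 5 were higher and 2 lower in cKO (median log2 fold change 0.73), with the control antibody 6 were higher and none lower (0.88), and with the IFNAR1 antibody 1 was higher and none lower (0.39). Of all genes 7.1%, 4.45% and 0.675% were called there. The arms share no libraries, and a difference between these counts was not tested. In the sets, 3, 7 and 4 were higher and 1, 2 and 1 lower in cKO, where 34.7%, 21% and 34.9% of all genes were called, so that the shares in sets 1 and 3 (33.3% and 41.7%) lie near those of all genes. In peritoneal macrophages edgeR called none of the 12 (median 0.26, 3 at an unadjusted p under 0.05), none of 15 inflammasome genes (median 0.23, 2) and none of 27 death receptor and necroptosis genes (median 0.06, 3). The median over all genes was between -0.0529 and 0.0518 in every comparison.

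The 6 apoptotic caspase genes had no call on days 3 and 7 by edgeR, with 0 and 2 at an unadjusted p under 0.05. In the sets 1, 3 and 1 of the 6 were higher and 2, 1 and 3 lower in cKO, beside the same shares of all genes. Against the WT sets 5 of 6 were lower and 1 higher in cKO:Irf7KO (median -0.35), where 31.5% of all genes were called.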
